A study of Homo sapiens with 6 samples.

Results

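MUC1 and 9 genes of the stem cell program were followed in BT-549 cells, an established triple-negative breast cancer (TNBC) line, with and without silencing of PBRM1. The 10 genes were chosen by symbol: MUC1, MYC, KLF4, SOX2, POU5F1, NOTCH1, BMI1, CD44, ALDH1A1 and E2F1. All 10 were found among the 37887 rows of the count table, and 7 of them were among the 15450 genes with enough counts to be tested. The labels differ on the control cells: the titles name a control shRNA, whereas the description of the series gives a tet-inducible PBRM1 shRNA in cells treated with vehicle. By the treatment labels and that description, the 3 libraries of the control group (shCTL) came from cells given 0.1% DMSO, and the 3 libraries of the silenced group (shPBRM1) came from cells given 500 ng/ml doxycycline (DOX). DOX and PBRM1 silencing therefore cannot be told apart as sources of a difference, and all results are from a single cell line. The labels describe cultures in triplicate, and p-values measure the spread between these libraries. MUC1 itself was not silenced here, so that the libraries show how its mRNA and those of the other genes changed with PBRM1, and not which of them depend on MUC1.

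MUC1 encodes a mucin that is cleaved into an extracellular N-terminal and a transmembrane C-terminal subunit, MUC1-C, which signals from the membrane and in the nucleus. Counts per gene measure the mRNA and do not distinguish the subunits. MUC1-C has been linked to the self-renewal of breast cancer stem cells through the factors MYC, KLF4, SOX2 and OCT4 (the product of POU5F1), which together reprogram differentiated cells. NOTCH1, a receptor whose cleaved intracellular domain activates transcription, BMI1, a Polycomb repressor, and E2F1, an activator of S-phase genes, act in the same program, whereas CD44, the hyaluronan receptor, and ALDH1A1, an aldehyde dehydrogenase, are used as markers of breast cancer stem cells. PBRM1 is the subunit that defines the PBAF form of the SWI/SNF chromatin remodeling complex.

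PBRM1 was first assessed as the check of the labels. Levels are given in CPM, counts scaled to the TMM-normalized library size, as mean ± SD of 3 libraries. PBRM1 was at 157, 157 and 161 CPM in the shCTL libraries and at 43.3, 40.9 and 41.7 CPM in the shPBRM1 libraries. The silenced libraries thus retained 26.5% of the control level (log2 fold change -1.91, SE 0.03; edgeR, adjusted p = 9.98e-23). All fold changes are shPBRM1 relative to shCTL, with an SE from the spread of log2 CPM between libraries, and adjusted p-values come from the quasi-likelihood test of edgeR (Benjamini-Hochberg) over the 15450 genes. A gene passed the test where its adjusted p was under 0.05. Library totals ranged from 36429395 to 65096297 counts, at which a floor of 3 counts corresponds to 0.0471 to 0.0804 CPM. The 5 mesenchymal markers of this line were all tested, of which 2 rose (VIM by 0.31 and CDH2 by 0.54 on the log2 scale) and 3 fell, with FN1 at -1.33. Their sum, mostly SPARC (3893 ± 91.8 CPM in shCTL and 3021 ± 149 CPM in shPBRM1), was between 5399 and 5598 CPM in shCTL and between 4385 and 4655 CPM in shPBRM1. Of the 5 luminal and hormone receptor markers, ESR1 had at most 2 counts in any library, GATA3 at most 10, PGR at most 12 and FOXA1 at most 22. ERBB2, with 1906 to 3161 counts, made up most of their sum. That sum was at most 52.8 CPM in shCTL and at most 50.97 CPM in shPBRM1. Leukocyte markers (4 genes) summed to 0.804 to 1.09 CPM in shCTL and 0.173 to 0.233 CPM in shPBRM1. The T-cell gene CD3E was at 0 in all 6 libraries. Most of the sum was PTPRC, with at most 44 counts in any library. PTPRC fell from 0.797 ± 0.0907 to 0.132 ± 0.0587 CPM (log2 fold change -2.55, SE 0.28, edgeR, adjusted p = 6.35e-06). The chi-square per degree of freedom between libraries of a group ranged from 4.92 to 24.9, the 2 highest values being those of shPBRM1 replicate 1 against the other 2 silenced libraries.

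Among the 10 genes, KLF4 and NOTCH1 fell by more than 2-fold with PBRM1 silencing, MUC1 and MYC fell by less, E2F1, CD44 and BMI1 rose by less than 2-fold, POU5F1 was too low to be tested, and SOX2 and ALDH1A1 were not detected. Of the 7 genes tested, 4 fell and 3 rose. Over all genes tested, 33.2% fell and 31.5% rose, so that a passed test was common in this comparison. Of the 7, 2 fell by more than 2-fold and 0 rose by more than 2-fold, beside 9.68% and 2.87% of all genes tested. The count of 0 was the same at an unadjusted p under 0.05 and with DESeq2. The values of the 2 groups did not overlap for any of the 7, which was also true of 68.3% of all genes tested. The median log2 fold change was -0.48 over the 7 genes and -0.0080 over all genes tested.

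**Figure D1:**
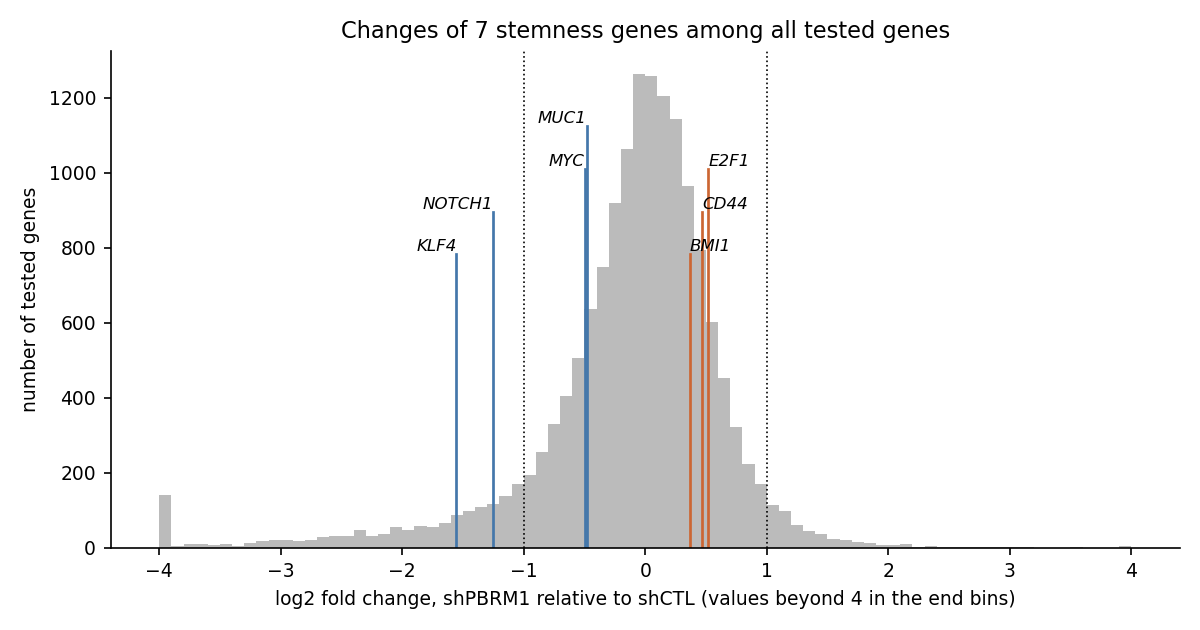
Histogram of the log2 fold change (x axis, shPBRM1 relative to shCTL) of the 15450 tested genes (grey bars, y axis in number of genes), with the 7 tested stemness genes marked by lines (blue, lower; orange, higher). Dotted lines mark a 2-fold change in each direction; KLF4 at -1.55 and NOTCH1 at -1.26 lie beyond it, and the other 5 genes lie between -0.50 and 0.52.

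The mRNA of MUC1 (ENSG00000185499.16, chr1:155185824-155192916, minus strand) decreased by less than 2-fold when PBRM1 was silenced. Positions and identifiers were taken from GENCODE v29 (GRCh38). The level of MUC1 was 74.0, 70.1 and 67.8 CPM in the shCTL libraries and 49.5, 50.2 and 51.9 CPM in the shPBRM1 libraries. Every silenced library lay below every control library. The mean was 70.6 ± 3.13 CPM in shCTL and 50.5 ± 1.22 CPM in shPBRM1, which is 71.6% of the control (log2 fold change -0.48, SE 0.04; edgeR, adjusted p = 5.17e-10). The 3 genes whose pattern over the 6 libraries was nearest to that of MUC1, by Euclidean distance between log2 CPM values relative to the shCTL mean, were AP3M2, YIPF4 and GLB1, out of 12505 candidates. Their distances were between 0.0560 and 0.0650, and their log2 fold changes were -0.50, -0.47 and -0.48. In the annotation, MUC1 shares a stretch of its strand with the protein-coding gene AL713999.1, a symbol the count table does not list.

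KLF4 (ENSG00000136826.14, chr9:107484852-107490482, minus strand), a zinc finger factor of the pluripotency network, showed the largest change of the 7 genes tested. It was at 102, 103 and 102 CPM in shCTL and at 34.7, 35 and 34.7 CPM in shPBRM1. Libraries within a group differed by less than 1 CPM, and the groups were far apart. The level fell to 34.1% of the control (102 ± 0.416 and 34.8 ± 0.205 CPM; log2 fold change -1.55, SE 0.0059; edgeR, adjusted p = 1.51e-20). With 3 libraries, an SE this small is itself imprecise.

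NOTCH1 (ENSG00000148400.10, chr9:136494433-136545786, minus strand) was at 34.2, 33.9 and 32.7 CPM in shCTL and at 16, 13.4 and 12.7 CPM in shPBRM1. The silenced library of replicate 1 was the highest of its group and still lay below all control libraries. The mean fell from 33.6 ± 0.794 to 14.1 ± 1.76 CPM, or 41.8% of the control (log2 fold change -1.26, SE 0.10; edgeR, adjusted p = 4.67e-13). Without 1 library in turn, the NOTCH1 log2 fold change ranged from -1.36 to -1.18.

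MYC (ENSG00000136997.17, chr8:127735434-127741434, plus strand), the transcription factor that drives ribosome biogenesis and growth, was at 203, 217 and 226 CPM in shCTL and at 151, 159 and 148 CPM in shPBRM1. The highest silenced library was below the lowest control library. The decrease, from 215 ± 12 to 153 ± 5.53 CPM, was close in size to that of MUC1 (log2 fold change -0.50, SE 0.06; edgeR, adjusted p = 2.97e-10).

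E2F1, CD44 and BMI1 increased. E2F1 (ENSG00000101412.12, chr20:33675683-33686404, minus strand) was at 46.4, 46.6 and 46.1 CPM in shCTL and at 63.8, 68.8 and 66.7 CPM in shPBRM1, with no overlap (log2 fold change 0.52, SE 0.03; edgeR, adjusted p = 1.25e-10). CD44 (ENSG00000026508.18, chr11:35138870-35232402, plus strand) had the most counts of the 10 genes, with means of 1551 ± 25.6 CPM in shCTL and 2144 ± 26.5 CPM in shPBRM1. Its counts were 58095, 74037 and 79351 in the control libraries and 129483, 84102 and 134691 in the silenced libraries, and after normalization all silenced libraries lay above all control libraries (log2 fold change 0.47, SE 0.02; edgeR, adjusted p = 4.11e-12). BMI1 (ENSG00000168283.13, chr10:22321211-22331484, plus strand) was at 42.1, 43.0 and 41.3 CPM in shCTL and at 50.3, 56.3 and 56.7 CPM in shPBRM1. Its silenced replicate 1 was nearest to the controls, and the groups did not overlap (log2 fold change 0.37, SE 0.06; edgeR, adjusted p = 5.90e-07). BMI1 overlaps the readthrough gene COMMD3-BMI1, which had 0 counts in all 6 libraries. The neighbouring COMMD3, which is part of that readthrough, rose from 4.50 ± 0.187 to 7.45 ± 0.158 CPM (log2 fold change 0.73, SE 0.04; edgeR, adjusted p = 8.11e-07). CD44-AS1, the antisense gene of CD44, had between 14 and 24 counts per library. The counting setting for strand is not given in the sources used here.

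POU5F1 (ENSG00000204531.17, chr6:31164337-31180731, minus strand) was near the detection floor. Its counts were 7, 13 and 3 in shCTL and 28, 4 and 11 in shPBRM1. These values overlap, and the highest was silenced replicate 1. The means were 0.172 ± 0.105 and 0.247 ± 0.193 CPM, and POU5F1 did not enter the test. Without the filter on low counts its log2 fold change was 0.58 (edgeR, adjusted p = 0.455), and no difference was detectable at this depth. POU5F1 has near-identical pseudogenes and overlaps TCF19 on the opposite strand, which had 218 to 521 counts, so that even these few counts are uncertain. SOX2 (ENSG00000181449.3, chr3:181711924-181714436, plus strand) and ALDH1A1 (ENSG00000165092.12, chr9:72900662-73080442, minus strand) had 0 counts in each of the 6 libraries, which is below the floor of 3 counts, or 0.0804 CPM in the shallowest library. The long noncoding gene SOX2-OT, in which SOX2 lies, had 0 to 9 counts.

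**Figure D2:**
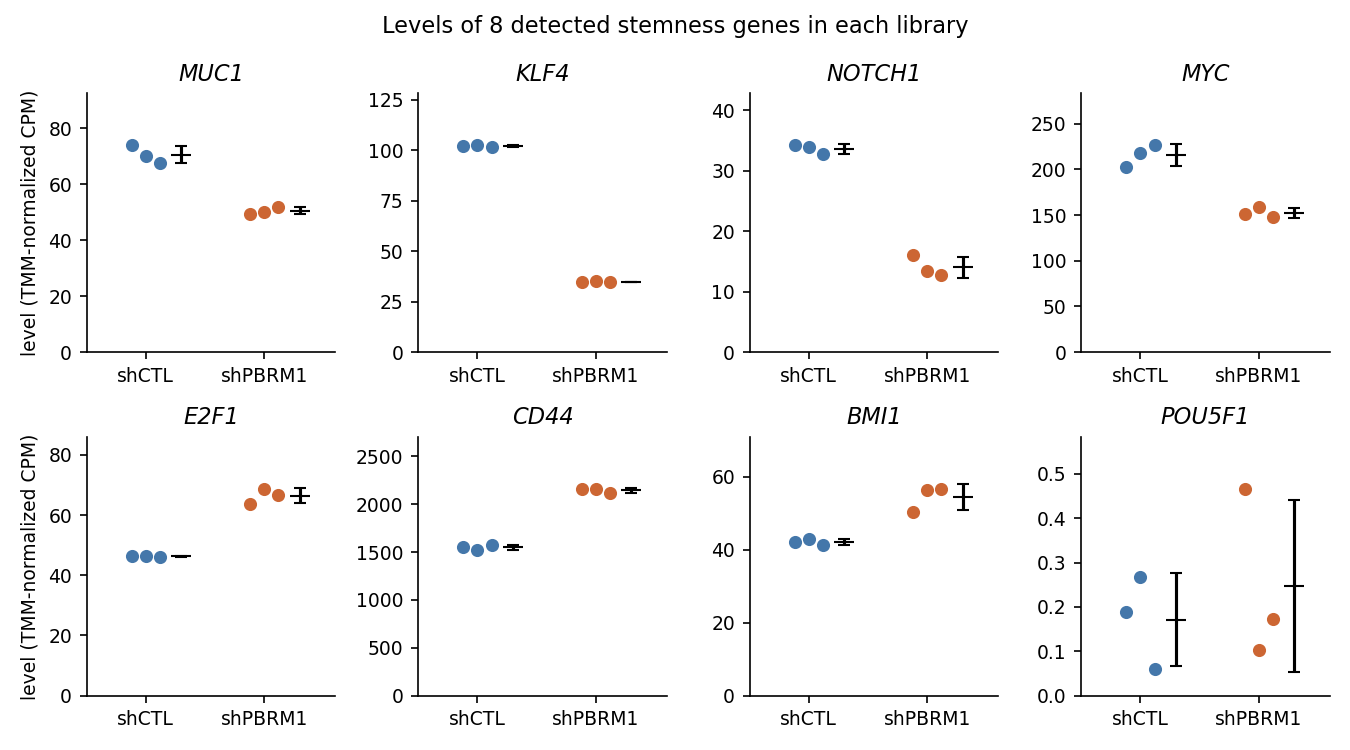
Level in TMM-normalized CPM (y axes start at 0 and differ between panels) of the 8 detected genes in each shCTL (blue) and shPBRM1 (orange) library, with the mean ± SD of 3 libraries in black. The groups are separate for MUC1, KLF4, NOTCH1 and MYC, which are lower in shPBRM1, and for E2F1, CD44 and BMI1, which are higher, whereas POU5F1 overlaps below 0.5 CPM.

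The abundance of the genes relative to each other was compared per length, as CPM per kb of exon in the GENCODE v29 annotation. In shCTL the order was CD44 (155 ± 2.56 CPM per kb), MYC (71.8 ± 4.0), KLF4 (27.9 ± 0.114), E2F1 (18.5 ± 0.0988), MUC1 (15 ± 0.664), BMI1 (9.84 ± 0.205), NOTCH1 (3.24 ± 0.0765) and POU5F1 (0.0592 ± 0.0362). Each gene's 3 values lay apart from those of its neighbours in this order. In shPBRM1 the order was CD44 (214 ± 2.65 CPM per kb), MYC (50.8 ± 1.84), E2F1 (26.5 ± 1.0), BMI1 (12.7 ± 0.845), MUC1 (10.7 ± 0.259), KLF4 (9.51 ± 0.0560), NOTCH1 (1.35 ± 0.169) and POU5F1 (0.0854 ± 0.0666), again with no overlap between neighbours. KLF4 thus stood above E2F1, MUC1 and BMI1 in the control libraries and below them in the silenced libraries. BMI1 and MUC1 also exchanged places. These levels use the length of all exons of a gene, and a change in the transcripts used would alter them. The order between genes, and the exchange of BMI1 and MUC1, rests on this choice of length.

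**Figure D3:**
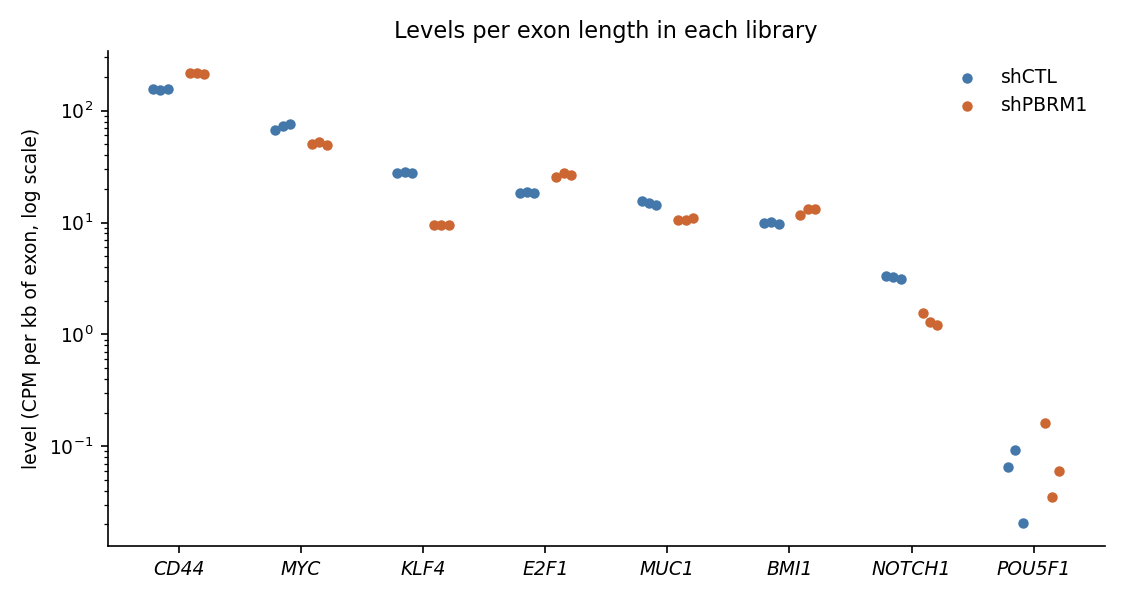
Level per exon length (CPM per kb, log scale) of the 8 detected genes in each shCTL (blue) and shPBRM1 (orange) library, ordered by the shCTL level. CD44 is highest in both groups, and KLF4 falls from 27.9 to 9.51 CPM per kb, below E2F1, MUC1 and BMI1.

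The promoters of 4 of these genes are shown because KLF4 and NOTCH1 were the genes that fell by more than 2-fold, MUC1 gives the set its name, and E2F1 holds a site for its own family of factors. Each is the 250 bases before the RefSeq start site on GRCh38.p14, written from 5′ to 3′ on the strand of the gene, with capitals for a motif.
KLF4 promoter, chr9:107489770-107490019, minus strand: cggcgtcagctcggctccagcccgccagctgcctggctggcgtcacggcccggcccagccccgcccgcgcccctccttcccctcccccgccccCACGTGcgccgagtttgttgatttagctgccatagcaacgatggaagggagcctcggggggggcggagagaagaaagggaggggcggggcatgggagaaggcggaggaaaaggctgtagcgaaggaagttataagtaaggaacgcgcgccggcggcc
NOTCH1 promoter, chr9:136546049-136546298, minus strand: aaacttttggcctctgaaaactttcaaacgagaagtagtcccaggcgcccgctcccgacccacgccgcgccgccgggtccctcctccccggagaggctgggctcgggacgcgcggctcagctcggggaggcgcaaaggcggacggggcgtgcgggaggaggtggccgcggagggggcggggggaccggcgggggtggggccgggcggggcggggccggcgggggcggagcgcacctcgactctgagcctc
MUC1 promoter, chr1:155192916-155193165, minus strand: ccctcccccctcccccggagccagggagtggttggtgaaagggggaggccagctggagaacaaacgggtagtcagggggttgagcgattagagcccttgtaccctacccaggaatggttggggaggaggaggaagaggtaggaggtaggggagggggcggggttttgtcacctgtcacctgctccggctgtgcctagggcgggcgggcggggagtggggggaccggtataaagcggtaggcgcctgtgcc
E2F1 promoter, chr20:33686386-33686635, minus strand: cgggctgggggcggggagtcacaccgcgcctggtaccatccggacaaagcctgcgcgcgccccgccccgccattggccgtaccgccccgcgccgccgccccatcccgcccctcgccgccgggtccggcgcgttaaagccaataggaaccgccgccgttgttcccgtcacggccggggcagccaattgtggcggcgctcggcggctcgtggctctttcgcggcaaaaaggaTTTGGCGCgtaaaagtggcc
The capitals in KLF4 mark an E-box, CACGTG, the sequence that MYC-MAX dimers bind, at 157 to 152 bases before the start. The KLF4 window lies inside the span of the gene given above from GENCODE, and so downstream of its outermost start in that annotation. The same is true of the CD44 and ALDH1A1 windows. The capitals in E2F1 mark an E2F site, TTTGGCGC, at 20 to 13 bases before the start. The E2F1 window reaches into the GENCODE span of its gene, which ends at chr20:33686404. Most of this site lies within that span. The motifs searched, on both strands, were the E-box, the E2F site (TTTGGCGC or TTTCCCGC), a STAT site (TTCNNNGAA) and the core of the interferon-stimulated response element (GAAANNGAA). Of 35116 promoters of the same length, 6.34% held the E-box, 1.93% the E2F site, 6.57% the STAT site and 6.88% the core element, and no matches overlapped each other. None of the 4 motifs was in the NOTCH1 window or in the MUC1 windows. The BMI1 promoter at chr10:22320849-22321098 also held an E-box, at 70 to 65 bases before the start, as did a PBRM1 promoter at 130 to 125 bases. The windows of CD44, SOX2 and ALDH1A1 held none of the motifs. GC content was 38.4% for ALDH1A1, 62.4% for CD44 and 76.8% for this BMI1 promoter. Further windows of BMI1 (chr10:22321706-22321955) and PBRM1 (chr3:52685600-52685849) held none of the motifs, with a GC content of 91.6% and 83.6%. A match describes these letters and not a bound site.

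Transmembrane mucins other than MUC1 were low or undetected. Of 10 other membrane mucins, 6 had at most 3 counts in each library, and MUC4, MUC20, MUC21 and MUC22 had 0 counts throughout. MUC16, the ovarian cancer antigen CA125, was the only other mucin tested, at 1.20 ± 0.221 CPM in shCTL and 0.415 ± 0.105 CPM in shPBRM1, and it fell (log2 fold change -1.51, SE 0.24; edgeR, adjusted p = 7.91e-05). Genes for 7 binding partners of MUC1-C changed in both directions: 2 rose, 2 fell and 3 did not pass the test (median -0.07). The shares over all tested genes were 31.5% that rose and 33.2% that fell. LGALS3, the galectin that links MUC1-C to receptor tyrosine kinases, fell from 121 ± 2.78 to 81.5 ± 3.76 CPM (log2 fold change -0.57). RELA, the p65 subunit of NF-κB, fell by 0.38 on the log2 scale, CTNNB1 (β-catenin) rose by 0.45, and EGFR rose by 0.30. Neither STAT3 (log2 fold change -0.07, adjusted p = 0.127) nor ERBB2 (-0.04, adjusted p = 0.469) passed.

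Genes linked to induction by MUC1-C changed in both directions as well. The list holds TWIST1, ZEB1, CD274 and genes for DNA methyltransferases and Polycomb repressive complex 2. Of 8, 4 rose, 2 fell and 2 did not pass, and the median log2 fold change was 0.12. Among all tested genes, 31.5% rose and 33.2% fell. CD274, which encodes PD-L1, fell from 30.4 ± 0.778 to 11.4 ± 0.566 CPM (log2 fold change -1.42, SE 0.05; edgeR, adjusted p = 4.66e-15). ZEB1, the repressor of epithelial genes, fell by 0.55 on the log2 scale. DNMT3B, a de novo DNA methyltransferase, rose from 3.97 ± 0.308 to 8.77 ± 1.0 CPM (log2 fold change 1.14, SE 0.11; edgeR, adjusted p = 2.72e-09), and EED, of Polycomb repressive complex 2, rose by 0.26. The proteins or complexes behind the list were drawn from the background the study gives, and their genes were filled in for this list.

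The Notch ligands JAG1 and DLL1 fell with NOTCH1, while the receptors NOTCH2 and NOTCH3 rose. Notch ligands on a neighbouring cell trigger cleavage of the receptor by ADAM10 and γ-secretase, and the released domain joins RBPJ and Mastermind proteins at target genes such as the HES and HEY repressors. JAG1, a ligand, had 544, 758 and 796 counts in shCTL and 106, 95 and 134 counts in shPBRM1. It fell from 15.3 ± 0.649 to 2.1 ± 0.338 CPM, with no overlap (log2 fold change -2.89, SE 0.14; edgeR, adjusted p = 9.93e-17). DLL1, another ligand, had 66, 88 and 106 counts in shCTL and 23, 14 and 28 in shPBRM1 (log2 fold change -2.25, SE 0.11; edgeR, adjusted p = 2.53e-08). In contrast, JAG2 rose by 0.59, NOTCH2 by 0.37 and NOTCH3 by 0.36 on the log2 scale, DLL3 did not pass (0.08, adjusted p = 0.614), and NOTCH4 had at most 2 counts. NOTCH2 was at 433 ± 6.99 CPM in shCTL and 561 ± 11.4 CPM in shPBRM1. Of the 8 ligands and receptors other than NOTCH1, 6 were tested, 3 rose and 2 fell, and the median was 0.22. The shares over all tested genes were 31.5% that rose and 33.2% that fell. DLL1 overlaps FAM120B on the opposite strand, which had 434 to 729 counts, so that counts may be shared.

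The Notch targets HEY1 and HES4 fell, with larger fold changes than NOTCH1. The counts of HEY1, a transcriptional repressor, were 987, 1173 and 1290 in shCTL and 48, 62 and 74 in shPBRM1. It retained 4.67% of its control level, at 1.19 ± 0.397 CPM against 25.4 ± 1.17 CPM (log2 fold change -4.47, SE 0.28; edgeR, adjusted p = 4.82e-19). HES4 fell from 26.2 ± 1.35 to 5.43 ± 0.451 CPM (log2 fold change -2.27, SE 0.08; edgeR, adjusted p = 3.50e-17), and NRARP, a feedback inhibitor of the receptor complex, fell by 0.97. HES1, a widely used Notch target, was at 15.1 ± 0.599 CPM in shCTL and 14.6 ± 1.21 CPM in shPBRM1, and the difference did not pass (log2 fold change -0.05; edgeR, adjusted p = 0.550). Thus 3 of the 4 targets tested fell and 0 rose, by edgeR at an adjusted or an unadjusted p under 0.05 and by DESeq2. Over all tested genes, 33.2% fell and 31.5% rose. HEY2 and HEYL, of the 6 listed, were too low to be tested.

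Of 15 genes that process the receptor or act with it in the nucleus, 13 were tested, 4 rose and 3 fell (median -0.04). Among all tested genes, 31.5% rose and 33.2% fell. With library size only, 4 of these Notch genes rose and 5 fell. Likewise, 5 of them fell when a mean of at least 50 counts was required. ADAM10, the protease that sheds the Notch ectodomain, rose by 0.67 and APH1A, of γ-secretase, by 0.38. RFNG, a glycosyltransferase that modifies Notch, fell by 0.53, and the coactivator MAML2 fell by 0.45. RBPJ, the DNA-binding partner, was at -0.07 and did not pass (adjusted p = 0.103).

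**Figure D4:**
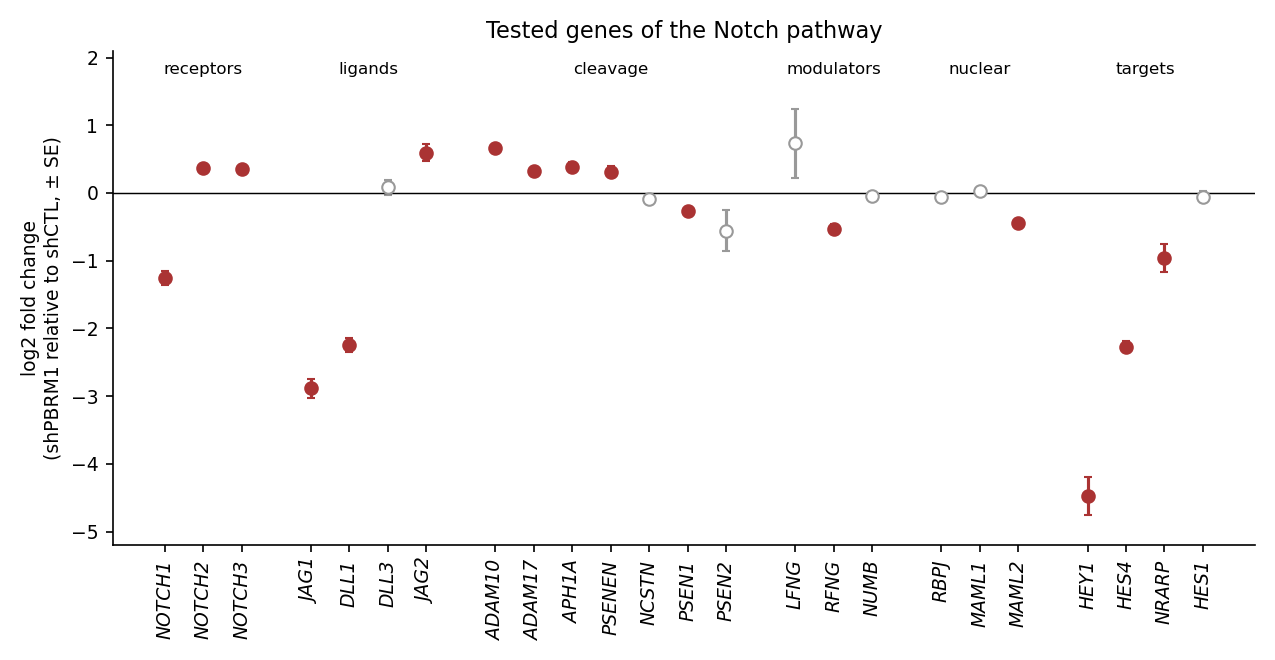
Log2 fold change ± SE (y axis, shPBRM1 relative to shCTL, 3 libraries per group) of NOTCH1 and each tested gene of the Notch pathway, grouped by role, with filled red points for an adjusted p under 0.05 and open grey points otherwise. NOTCH1, JAG1, DLL1, HEY1 and HES4 lie below a 2-fold decrease, NOTCH2 and NOTCH3 lie above 0, and HES1 lies at -0.05.

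The network of MYC fell with it in part. MAX is the obligate dimer partner of MYC, and the MXD proteins compete with MYC for MAX. Of 11 network genes, 10 were tested, 7 fell and 3 rose (median -0.36), beside 33.2% of all tested genes that fell and 31.5% that rose. MAX fell from 67.1 ± 0.638 to 38.5 ± 2.63 CPM (log2 fold change -0.81; edgeR, adjusted p = 4.20e-13). The antagonist MXD1 was lower by more, at 27.2 ± 1.3 CPM in shCTL and 6.09 ± 0.649 CPM in shPBRM1 (log2 fold change -2.17, SE 0.10; edgeR, adjusted p = 9.41e-17). MXI1, of the same family, fell by 0.87, whereas MXD3 rose by 0.94. The paralog MYCL fell from 7.63 ± 0.937 to 2.1 ± 0.415 CPM (log2 fold change -1.89), and MYCN had 0 counts in all 6 libraries. MXD1 and MXD3 each overlap another gene on their own strand in the annotation, so that some of their counts may be shared. Of 13 established MYC target genes, 9 rose, 2 fell and 2 did not pass (median 0.19), beside 31.5% of all tested genes that rose and 33.2% that fell. With library size only, 7 of them rose and 3 fell. ODC1, the rate-limiting enzyme of polyamine synthesis, rose by 0.67, LDHA, of lactate production, by 0.51, and FBL, the nucleolar methyltransferase fibrillarin, by 0.45, while NOP56, a partner of fibrillarin, fell by 0.53.

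Other KLF family genes fell with KLF4. Of 15, 13 were tested, 10 fell and 0 rose (median -0.41), beside 33.2% of all tested genes that fell. The count of 0 also held at an unadjusted p under 0.05 and with DESeq2. KLF5, a factor of proliferating epithelial cells, was at 20.9 ± 0.543 CPM in shCTL and 9.45 ± 0.330 CPM in shPBRM1 (log2 fold change -1.14, SE 0.04; edgeR, adjusted p = 1.13e-12). KLF11 fell by 0.79, KLF6 by 0.49 and KLF16 by 0.49. Without shCTL replicate 3, 1 of the family rose (KLF17).

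SOX2 was undetected, but 10 of 15 other SOX genes were tested. In all, 4 rose and 3 fell (median 0.13), beside 31.5% and 33.2% of all tested genes, and SOX1 and SOX17 had 0 counts. SOX15 rose the most, from 44, 74 and 67 counts in shCTL to 251, 222 and 282 counts in shPBRM1, with no overlap (1.34 ± 0.172 and 4.77 ± 0.818 CPM; log2 fold change 1.8, SE 0.17; edgeR, adjusted p = 9.54e-10). SOX3, of the same subgroup as SOX2, was low and rose by 0.90, and SOX5 rose by 0.72. SOX11, a factor of neural progenitors, fell by 0.44. SOX9, which lies outside the naming rule and was chosen after its value was seen, was at 79.1 ± 0.891 and 59.3 ± 5.22 CPM.

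The pluripotency network around POU5F1 and SOX2 was largely silent in both groups. Of 16 genes, 10 had at most 3 counts in each library and 7 had 0 counts throughout, and NANOG, the partner of OCT4 and SOX2, had at most 1 count. Of 3 genes tested, 1 fell and 0 rose by edgeR, beside 33.2% and 31.5% of all tested genes. At an unadjusted p under 0.05 by edgeR 1 rose, and with DESeq2 0 rose. The gene that fell was SALL4, with 32, 44 and 66 counts in shCTL and 6, 2 and 6 in shPBRM1. Its log2 fold change was -3.55 (SE 0.27, edgeR, adjusted p = 7.94e-08). It was named after its values were seen. Of the other low genes, 1 rose without shCTL replicate 1 (ESRRB), without shPBRM1 replicate 1 (ZFP42) or without shPBRM1 replicate 2 (ESRRB).

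BMI1 is the PCGF subunit of a canonical Polycomb repressive complex 1 (PRC1), which ubiquitylates histone H2A. All 15 other PCGF and PRC1 genes were tested, of which 2 rose and 7 fell (median -0.15), beside 31.5% and 33.2% of all tested genes. The number that fell was 6 with DESeq2 and 8 with library size only. PCGF5, the paralog of a noncanonical complex, fell from 21.6 ± 0.989 to 5.76 ± 0.428 CPM (log2 fold change -1.91, SE 0.07; edgeR, adjusted p = 8.85e-16), while PCGF3 rose by 0.67. PCGF2, the closest paralog of BMI1, did not pass (0.08, adjusted p = 0.335). RING1, an E3 ligase of the complex, fell by 0.59 on the log2 scale. At the locus that BMI1 is best known to repress, CDKN2B, an inhibitor of CDK4 and CDK6, fell from 185 ± 3.54 to 106 ± 1.83 CPM (log2 fold change -0.80, SE 0.02; edgeR, adjusted p = 2.09e-15). It overlaps the antisense gene CDKN2B-AS1. CDKN2A, which encodes p16, was abundant in both groups, at 267 ± 11.0 and 255 ± 11.8 CPM, and did not pass (-0.07, adjusted p = 0.154). With library size only, 2 of the 2 genes of this locus fell.

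E2F target genes increased with E2F1. Of 19 genes of DNA replication and S phase, 14 rose, 1 fell and 4 did not pass, with a median of 0.40, beside 31.5% of all tested genes that rose. CCNA2, cyclin A, was at 55.8, 55.7 and 56.7 CPM in shCTL and at 122, 126 and 125 CPM in shPBRM1 (log2 fold change 1.15, SE 0.02; edgeR, adjusted p = 1.15e-18). It overlaps a gene on the opposite strand in the annotation. Each silenced library was more than 2-fold above the mean of the controls. TK1, thymidine kinase, rose by 0.77 and CDC25A, the phosphatase that activates CDK2, by 0.75, and MCM6, of the replicative helicase, was the gene that fell (-0.22). With library size only, 2 of these genes fell. Among the 12 other E2F and RB family genes, 4 rose and 6 fell (median -0.15), beside 31.5% and 33.2% of all tested genes. With library size only, 2 of the 12 rose and 7 fell. The atypical repressor E2F8 rose by 0.54, whereas TFDP2, a dimer partner, fell by 0.44, RBL1 (p107) by 0.39 and the repressor E2F4 by 0.25.

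Of 13 genes of hyaluronan signaling other than CD44, 12 were tested, 7 rose and 1 fell (median 0.25), beside 31.5% and 33.2% of all tested genes. With library size only, 6 rose and 2 fell. CEMIP2, a cell surface hyaluronidase, rose by 0.66, HMMR, another hyaluronan receptor, by 0.59, and MSN, the moesin that links CD44 to actin, from 645 ± 19.4 to 970 ± 46.3 CPM (log2 fold change 0.59). The gene that fell was ESRP1, the epithelial splicing regulator that promotes variant exons of CD44, at 2.49 ± 0.0980 CPM in shCTL and 0.572 ± 0.0965 CPM in shPBRM1 (log2 fold change -2.11, SE 0.13; edgeR, adjusted p = 5.81e-09). With the replicate number as a block, or without shCTL replicate 1, 2 genes of this list fell, the added gene being EZR. Counts per gene do not show which CD44 isoforms were made. CD24, whose absence together with CD44 marks breast cancer stem cells, was at 34.2, 35.2 and 35.6 CPM in shCTL and at 12.5, 11.0 and 12.9 CPM in shPBRM1, with no overlap (log2 fold change -1.52, SE 0.07; edgeR, adjusted p = 1.71e-15). Of 12 stem cell surface markers, 10 were tested, 2 rose and 6 fell, 4 of them by more than 2-fold (median -0.65), beside 33.2% of all tested genes that fell and 9.68% that fell by more than 2-fold. Among them PROCR, a marker of mammary stem cells, fell by 1.36 and THY1 (CD90) by 0.66 on the log2 scale, while the integrin ITGA6 rose from 182 ± 5.89 to 333 ± 9.12 CPM (log2 fold change 0.87). The 4 also included LGR5 and CXCR4, named after their values were seen, with at most 24 and 14 counts in any library, and CXCR4 did not pass with DESeq2. The epithelial cadherin CDH1 fell as well, from 5.0 ± 0.363 to 1.51 ± 0.313 CPM, and EPCAM had at most 8 counts.

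ALDH1A1 was undetected, and ALDH1A2 had at most 2 counts. ALDH1A3, the retinaldehyde dehydrogenase that accounts for much of the ALDH activity of breast cancer stem cells, was therefore the form detected of the ALDH1A subfamily. It was at 29.4, 29 and 28.8 CPM in shCTL and at 11.4, 10.6 and 12.4 CPM in shPBRM1, with no overlap (log2 fold change -1.33, SE 0.07; edgeR, adjusted p = 3.38e-14). Of 16 ALDH genes other than ALDH1A1, which include ALDH1A2 and ALDH1A3, 14 were tested. Of these, 3 rose and 6 fell, ALDH1A3 among the 6 (median -0.13), beside 31.5% and 33.2% of all tested genes. ALDH9A1, of carnitine synthesis, rose from 32.8 ± 0.848 to 68.8 ± 4.0 CPM (log2 fold change 1.07), ALDH4A1, of proline breakdown, rose by 0.92, and ALDH3B1, which oxidizes fatty aldehydes, fell by 0.85. With the replicate number as a block, 5 ALDH genes rose, the added genes being ALDH6A1 and ALDH18A1. ALDH1A3 makes retinoic acid. Of 12 retinoid genes, 9 were tested, 6 fell, beside 33.2% of all tested genes, and 3 did not pass (median -0.62), and 0 rose by edgeR, also at an unadjusted p under 0.05 and with DESeq2. DHRS3, a retinaldehyde reductase, fell from 172 ± 5.84 to 102 ± 2.34 CPM (log2 fold change -0.76). CRABP2, which carries retinoic acid to the nucleus, fell by 0.68 on the log2 scale, and CYP26B1, which degrades it, by 0.65. Without shPBRM1 replicate 1, 1 retinoid gene rose (RXRB).

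**Figure D5:**
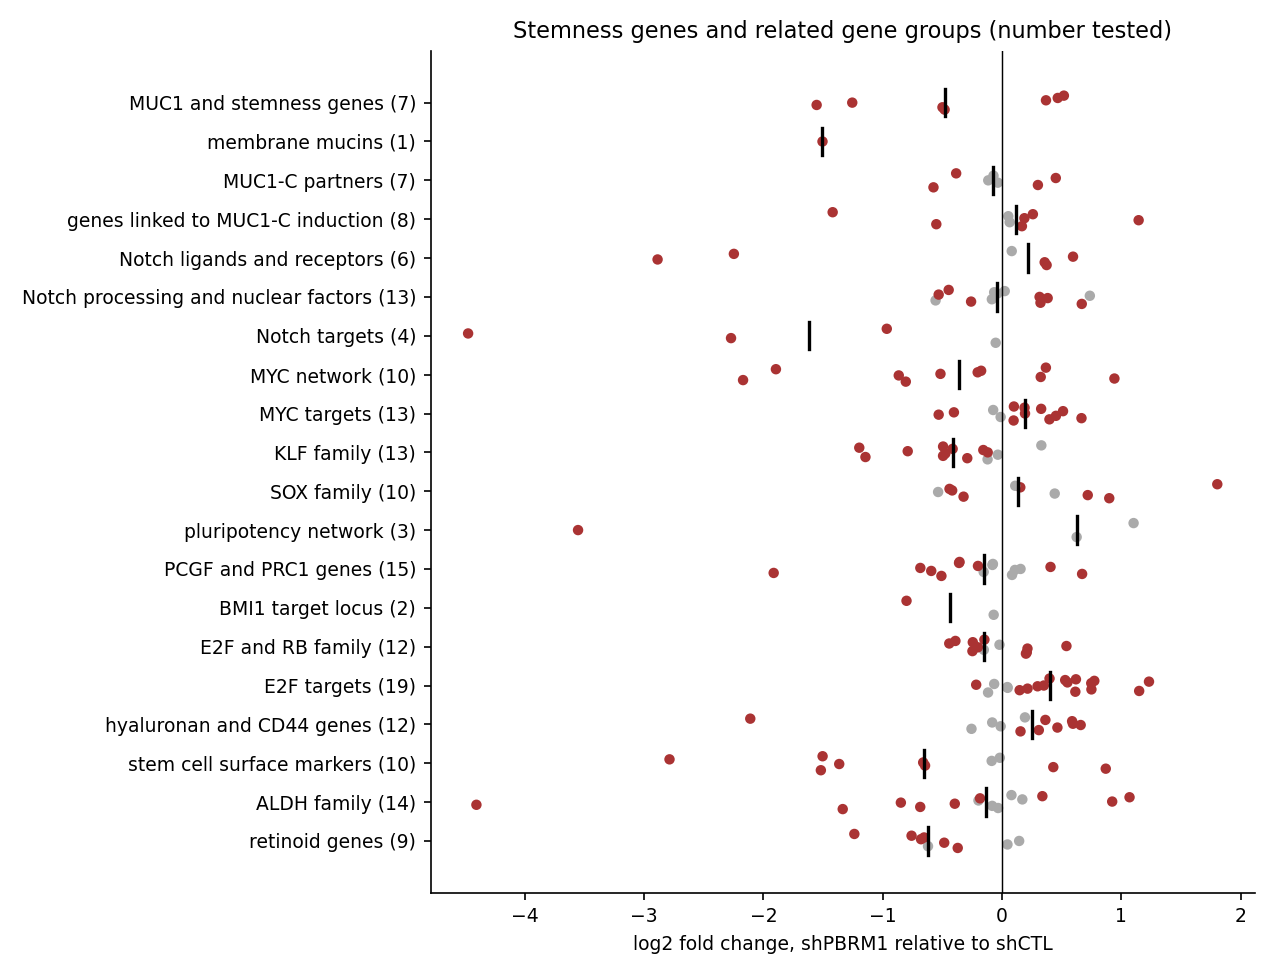
Log2 fold change (x axis, shPBRM1 relative to shCTL) of every tested gene of the stemness set and of each related group, with the number tested in parentheses, red for an adjusted p under 0.05, grey otherwise, and a black bar at the median of the group. The medians range from -1.62 for Notch targets to 0.63 for the pluripotency network, which has 3 tested genes, and the E2F targets have a median of 0.40.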

How the data were processed

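RNA-seq of poly(A) RNA (TruSeq Stranded mRNA, Trizol extraction) from 6 BT-549 libraries was analyzed. The values the authors deposited are raw counts for each gene symbol, without normalization. The submitters' processing notes list CASAVA 1.8.2, STAR 2.7.9a, featureCounts, DESeq2 1.24.0 and GRCh38.p7. The annotation and the strand setting are not given in the sources used here. A count of 2 was found on 1553 to 1710 rows per library and a count of 1 on 919 to 982 rows, so that low counts may not be single fragments. Of 37887 rows, 12608 were 0 in all libraries and 14 carried dates. They were kept in the totals.

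The quasi-likelihood F-test of edgeR 4.0.16 (R 4.3.3) was applied to the counts after TMM normalization and filterByExpr, with Benjamini-Hochberg adjustment, with all 6 libraries and no covariate. A gene passed at an adjusted p under 0.05, and a second rule added a fold change over 2. SEs are from log2 CPM with 2 counts added. Groups were taken from the titles. Control columns carry the cell line and a replicate number without the word control, and were matched on those. Libraries of the same replicate number had correlations of 0.734, 0.593 and 0.419 between their deviations from the mean of each group, over 5622 genes. Those of different numbers ranged from -0.671 to 0.464, the highest being shCTL replicate 2 with shPBRM1 replicate 3. Pairing by number was thus not settled by these values. Alternatives were DESeq2 1.42.0, RLE factors, scaling by library size alone, testing without the low-count filter, requiring a mean count of 50 or more, the replicate block and leaving out each library in turn. The tests were checked on simulated counts. Coordinates and exon lengths came from GENCODE v29, and promoters from RefSeq, whose table held entries for 8 of the 10 genes.

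The 10 genes and the related gene lists were chosen with earlier results of these data known. Named genes were at most 4 per list, those with the largest fold change that passed the test with a mean count of 50 or more and groups that did not overlap, and relatives of the 10 genes with at most 3 counts. Genes named beyond this rule were chosen after their values were seen: MUC16, STAT3, ERBB2, NOTCH3, DLL3, HES1, RBPJ, MAX, SOX9, SALL4, PCGF2, CDKN2A, MCM6, LGR5, CXCR4, COMMD3, the marker genes and the genes whose call changed in an alternative. A few genes that this rule selects are not reported here.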

Additional observations from a re-analysis of the deposited data

How the results depend on the processing

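The 7 tested genes and PBRM1 kept their direction and an adjusted p under 0.05 in all 12 alternatives. The log2 fold change ranged from -0.53 to -0.45 for MUC1, -0.55 to -0.46 for MYC, -1.60 to -1.55 for KLF4, -1.36 to -1.18 for NOTCH1, 0.32 to 0.43 for BMI1, 0.42 to 0.48 for CD44 and 0.47 to 0.55 for E2F1. Requiring a mean of at least 50 counts left 12506 genes to test, and the counts over all genes became 270 higher and 941 lower by more than 2-fold, against 443 and 1496. Library size only moved the median of all genes to -0.056, and 5 list counts moved by over 1.5 times with it. The replicate block, with the libraries paired by number, gave 5 ALDH genes that rose instead of 3 and 2 hyaluronan genes that fell instead of 1, changed no call of the 7 genes and moved no other count by over 1.5 times. Over all lists and alternatives, 17 counts moved by over 1.5 times and 439 did not. The cause was not tested. POU5F1, at 3 to 28 counts per library, was limited by depth, and its log2 fold change ranged from 0.16 to 0.90 in the 6 alternatives that tested it, with adjusted p between 0.201 and 0.842.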
